A study of Homo sapiens with 6 samples.

Results

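NF-kB is a family of transcription factors that controls inflammatory, survival and adhesion genes. The 10 genes described here comprise subunits of the factor and well-known genes that it induces, several of which feed back on it. They were chosen by symbol, as the rows of the expression table named NFKB1, NFKB2, RELA, RELB, NFKBIA, NFKBIZ, TNFAIP3, TNFAIP2, BIRC3 and ICAM1. All 10 symbols were found, each in 1 row, among 50868 genes with values, and all are annotated as protein coding.

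The RNA came from UM-UC-3 cells and from 5637 cells, each an established line of human bladder cancer, after stable lentiviral expression of short hairpin RNAs. Each line had 3 constructs, a negative control hairpin (sh-NC) and a pair of hairpins, called sh-LNMAT1#1 and sh-LNMAT1#2, that target the long noncoding RNA LNMAT1, with 1 library per construct and 6 libraries in all. The controls therefore carried the vector and had gone through the same puromycin selection as the knockdown cells. UM-UC-3 was grown in DMEM and 5637 in an RPMI medium, so line and medium cannot be told apart. Nothing in the labels speaks of separate cultures behind these libraries. The p-values below therefore measure only the spread between the libraries of both hairpins, taken over both lines together, which may be technical. In the comparison that pools the lines they also hold how far the changes of the lines differ.

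In resting cells NF-kB dimers are held in the cytoplasm by inhibitors such as IkBa, the product of NFKBIA. Signals from cytokine and pattern receptors activate the IKK kinases, IkBa is degraded, and dimers of RELA with p50 (from NFKB1) enter the nucleus in the canonical branch. In the non-canonical branch the NFKB2 product p100 is processed to p52, which pairs with RELB. Among the induced genes, NFKBIA and TNFAIP3 (A20) shut the pathway down again. BIRC3 (cIAP2) is a ubiquitin ligase of the receptor complexes, NFKBIZ encodes a nuclear IkB protein that modulates transcription, ICAM1 is a leukocyte adhesion molecule and TNFAIP2 is a gene induced by tumour necrosis factor.

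The 6 libraries held between 19375000 and 24707000 fragments, read from the whole-number steps of single-exon genes. LINC01296, the row of the hairpin target, stood at 14.2 FPKM (fragments per kilobase of exon, scaled to the depth of the library) in the control of UM-UC-3, at 6.20 with sh-LNMAT1#1 and at 6.70 with sh-LNMAT1#2. In 5637 it stood at 11.7 in the library labelled sh-NC, at 4.70 with sh-LNMAT1#1 and at 2.14 with sh-LNMAT1#2. The library labelled 5637 sh-NC stood apart from the other two 5637 libraries. Over 12717 genes its log2 values had a Pearson r of 0.985 to those of UM-UC-3 sh-LNMAT1#1, and to the 5637 knockdown libraries of 0.617 and 0.622, given as a description across genes. Of 8 epithelial markers, 2 reached 1 FPKM in each UM-UC-3 library and in the library labelled 5637 sh-NC, where the list summed to between 21.5 and 30.9 FPKM, and 7 did so in both 5637 knockdown libraries, with sums of 700.5 and 945.0. Of 7 urothelial markers, 3 reached 1 FPKM in the 5637 knockdown libraries and at most 1 elsewhere, and the uroplakin gene UPK1B was at 0 in all 6. PTPRC, which defines leukocytes, was at 0 except for 0.0108 FPKM in 5637 sh-LNMAT1#2, and the 8 leukocyte markers summed to between 13.04 and 31.2 FPKM in the 3 UM-UC-3 libraries and the library labelled 5637 sh-NC, nearly all of it CD68, and to 1.67 and 1.43 in the others. Of 5 mesenchymal markers, 3 to 5 reached 1 FPKM in each library, and the list summed to 363 FPKM in the UM-UC-3 control, to 158 and 186 with the hairpins, to 139 in the library labelled 5637 sh-NC and to 132 in each of the 5637 knockdown libraries. Its sum in UM-UC-3 was thus lower with both hairpins, through VIM, which stood at 332 FPKM in the control and at 116 and 155 with the hairpins. CDH2, FN1 and SNAI2 were instead higher with both hairpins, and ZEB1 stood at 12.5, 12.7 and 8.67. The part of these markers in the changes described in UM-UC-3 was not tested. The similar sums in 5637 came from different genes. VIM made up most of the 139, at 103 FPKM, but stood at 3.85 and 4.14 with the 5637 hairpins. FN1 made up most of the 132, at 110 and 102 with these hairpins against 0.884. ZEB1 (12.6 against 0.0264 and 0.00774 with the hairpins) and CDH2 differed in the direction of VIM, and SNAI2 in that of FN1. No endothelial marker of 4 reached 1 FPKM in any library. Of 5 fibroblast markers, 1 (COL1A1) did so in the 5637 knockdown libraries and 0 elsewhere. Wherever values of 5637 are given in the order control, first and second hairpin, the first is that of the library labelled 5637 sh-NC, and its part in the results that use it was not tested.

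NF-kB dimers bind a short DNA element, and 6 of the 9 genes for which RefSeq promoter windows were at hand carry a strict form of it close to a transcription start. RELB was not in the table. The motif searched was GGGNNTTTCC, on both strands, in the 250 bases before each start on GRCh38.p14. It was found in 7 of the 14 windows of these genes, against 1.73% of all 35116 windows, and in NFKB1, NFKB2, NFKBIA, NFKBIZ, TNFAIP3 and BIRC3, against 2.12% of 27305 genes. The wider NF-kB consensus, which overlaps the strict motif, was in 8 of the 14 windows and in the same 6 genes, against 9.96% of windows and 11.8% of genes. RELA, TNFAIP2 and ICAM1 had no match, which says only that these letters are not in the windows searched. The stretches below are shown because they hold the strict matches of the genes whose levels are described next. Each runs 5′ to 3′ on the strand of the gene, with the match in capitals, and a match is a description of sequence rather than a binding site.
NFKBIZ, chr3:101827740-101827839, plus strand: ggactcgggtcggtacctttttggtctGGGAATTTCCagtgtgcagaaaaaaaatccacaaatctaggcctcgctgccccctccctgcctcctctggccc
NFKB1, chr4:102501300-102501329, plus strand: cgacgtcagtGGGAATTTCCagccaggaag
TNFAIP3, chr6:137867188-137867217, plus strand: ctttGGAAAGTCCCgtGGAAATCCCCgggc
NFKB2, chr10:102394490-102394519, plus strand: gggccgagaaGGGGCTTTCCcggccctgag
NFKB2, chr10:102395674-102395703, plus strand: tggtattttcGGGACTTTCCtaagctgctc
BIRC3, chr11:102317240-102317339, plus strand: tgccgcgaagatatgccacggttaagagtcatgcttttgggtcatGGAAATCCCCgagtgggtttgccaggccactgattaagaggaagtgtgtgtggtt
NFKBIA, chr14:35404776-35404875, minus strand: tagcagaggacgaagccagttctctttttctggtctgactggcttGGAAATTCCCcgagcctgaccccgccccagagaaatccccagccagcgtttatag
Counted from the transcription start, the match began at -49 in NFKB1, at -78 and -21 before different starts of NFKB2, at -81 in NFKBIA and at -223 in NFKBIZ. TNFAIP3 had a pair of matches at -67 and -55, and BIRC3 had its match at -199. The matches of NFKBIA, TNFAIP3 and BIRC3 lie on the strand opposite to the gene. The identical 10 letters stand in NFKB1 and NFKBIZ, and likewise in TNFAIP3 and BIRC3. Read on the strand opposite to the gene, the match of NFKBIA has the same letters as that of NFKB1 and NFKBIZ.

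Of the subunits, NFKB2 had the highest level and RELA varied least. FPKM is per length, but the exon lengths behind these values are not given, so levels set side by side between genes are approximate. NFKB2 (chromosome 10, 102394110 to 102402529, hg38) stood at 55.0 FPKM in the UM-UC-3 control, 19.6 with sh-LNMAT1#1 and 27.3 with sh-LNMAT1#2, and at 15.1 in the library labelled 5637 sh-NC, 12.8 with sh-LNMAT1#1 and 7.44 with sh-LNMAT1#2. Every UM-UC-3 library was above every 5637 library. NFKB1 (chromosome 4, 102501329 to 102617302) stood at 12.9, 4.65 and 9.11 FPKM in UM-UC-3, in the order control, first and second hairpin, and in the same order at 4.99 (the library labelled 5637 sh-NC), 6.26 and 5.45 FPKM in 5637, so the lowest value of all was that of UM-UC-3 sh-LNMAT1#1. RELA (chromosome 11, 65653596 to 65663094), which carries the transactivation domain of the canonical dimer, ran from 5.10 FPKM in UM-UC-3 sh-LNMAT1#2 to 7.31 in UM-UC-3 sh-NC, with 5.29 in the library labelled 5637 sh-NC and 6.26 and 5.83 in the 5637 knockdown libraries. RELB (chromosome 19, 45001430 to 45038198), the partner of p52, stood at 16.3, 8.43 and 17.5 FPKM in UM-UC-3 and at 7.73 (the library labelled 5637 sh-NC), 4.10 and 3.64 in 5637. It was at similar levels in UM-UC-3 sh-LNMAT1#1 and the library labelled 5637 sh-NC, and the 5637 knockdown libraries were lowest.

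The inhibitors did not share 1 pattern. NFKBIA (chromosome 14, 35401511 to 35404749) stood at 28.0, 11.9 and 46.6 FPKM in UM-UC-3, again with the control first, and at 11.5 (the library labelled 5637 sh-NC), 21.6 and 23.4 in 5637. Its highest and second-lowest levels were thus those of both hairpins in UM-UC-3. NFKBIZ (chromosome 3, 101827991 to 101861022) stood at 3.03, 6.30 and 7.34 FPKM in UM-UC-3 and at 3.90 (the library labelled 5637 sh-NC), 10.4 and 12.9 in 5637, and both libraries labelled sh-NC were below all 4 knockdown libraries. TNFAIP3 (chromosome 6, 137867188 to 137883312) stood at 4.22, 1.59 and 8.89 FPKM in UM-UC-3. In 5637 it stood at 35.3 and 36.2 FPKM with the hairpins and at 1.51 in the library labelled sh-NC, so the 5637 knockdown libraries were far above the other 4.

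TNFAIP2 and ICAM1 were high in the 5637 knockdown libraries and low in the other 4, while BIRC3 varied widely within UM-UC-3. BIRC3 (chromosome 11, 102317450 to 102339403) had the highest single level of the 10 genes, at 149 FPKM in the UM-UC-3 control and 113 with sh-LNMAT1#2, but stood at 9.72 with sh-LNMAT1#1. In 5637 it stood at 9.35 in the library labelled sh-NC, 2.49 with sh-LNMAT1#1 and 4.18 with sh-LNMAT1#2. TNFAIP2 (chromosome 14, 103123442 to 103137439) was below 0.5 FPKM in 4 libraries, at 0.469, 0.144 and 0.149 in UM-UC-3 and 0.152 in the library labelled 5637 sh-NC, and stood at 45.4 and 46.3 in the 5637 knockdown libraries. ICAM1 (chromosome 19, 10270835 to 10286615) stood at 0.0589, 0.0163 and 0.0714 FPKM in UM-UC-3 and 0.00811 in the library labelled 5637 sh-NC, against 29 and 21.1 in the 5637 knockdown libraries. In all but those last 2 libraries ICAM1 therefore rested on few fragments, the smallest whole numbers that give its values being 8, 2, 9 and 1.

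**Figure D1:**
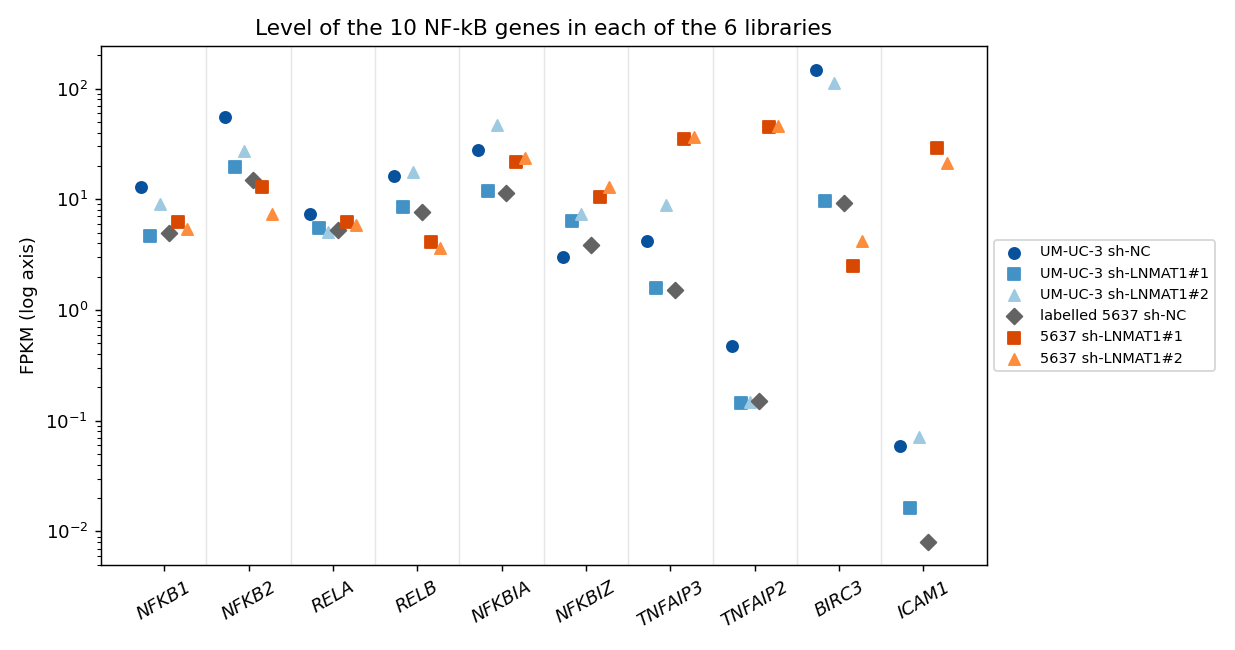
Level of each of the 10 genes in the 6 libraries, as FPKM on a log axis, with 1 point per library and no error bar since each construct has 1 library. The orange 5637 knockdown points of TNFAIP2 lie at 45.4 and 46.3 and those of ICAM1 at 29 and 21.1, far above the other 4 libraries, while RELA spans only 5.10 to 7.31.

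The first comparison asked how the 10 genes changed when LNMAT1 was silenced in UM-UC-3. Of the 8 genes expressed in this line, 7 were below the control with sh-LNMAT1#1, against 50.4% of all genes, and 4 with sh-LNMAT1#2, against 48.1%. BIRC3 was 15.3-fold lower in FPKM with sh-LNMAT1#1 and 1.32-fold lower with sh-LNMAT1#2. NFKBIA was 2.35-fold lower with sh-LNMAT1#1 and 1.66-fold higher with sh-LNMAT1#2, and TNFAIP3 was 2.65-fold lower with the first and 2.11-fold higher with the other. NFKBIZ was 2.08-fold and 2.42-fold higher. In bulk RNA, fewer cells that express a gene and less of its RNA per cell cannot be told apart.

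With 1 library per construct these differences have no replicate check, so a 2-fold rule on log2(FPKM + 0.5) was applied, which understates changes of low genes. TNFAIP2 and ICAM1 had a mean under 1 FPKM in this line and were not counted, which left 8 of the 10 genes and 12025 genes in all. With sh-LNMAT1#1, 5 of the 8 were at least 2-fold lower (NFKB1, NFKB2, NFKBIA, TNFAIP3 and BIRC3), against 5.31% of all genes. At least 2-fold higher were 0 of the 8, against 5.55%. With sh-LNMAT1#2, 0 of the 8 were 2-fold lower, against 1.41%, and 1 was 2-fold higher (NFKBIZ), against 2.1%. No gene of the 8 passed with both hairpins, either lower (0.358% of all genes) or higher (1.08%).

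Several values lay close to the limit. NFKB2 differed from UM-UC-3 sh-NC by log2 values of -1.46 and -0.997 with the hairpins, and its ratio in FPKM was 2.01 with sh-LNMAT1#2. NFKBIZ differed by 0.95 and 1.15. With a pseudocount of 0.1 in place of 0.5, 1 gene was lower and 1 gene higher with both hairpins.

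The difference between the hairpins was itself large. The libraries of sh-LNMAT1#1 and sh-LNMAT1#2 were at least 2-fold apart for 4 of the 8 genes (RELB, NFKBIA, TNFAIP3 and BIRC3), against 8.79% of all genes, and each of the 4 was lower with sh-LNMAT1#1. BIRC3 differed by -3.47 on the log2 scale, TNFAIP3 by -2.17, NFKBIA by -1.92 and RELB by -1.01. The median log2 change of the 8 genes was -1.19 with sh-LNMAT1#1, where the median of all genes was -0.0041, and -0.15 with sh-LNMAT1#2, where it was 0.017. LINC01296 itself was at 6.20 and 6.70 FPKM in these libraries.

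Taking both hairpins as the knockdown of the line, limma over 12717 genes called 0 of the 10 genes in UM-UC-3 and 0% of all genes at an adjusted p under 0.05, with 769 genes and 2 of the 10 under an unadjusted 0.05. Those 2 were NFKB2, which differed by -1.23 on the log2 scale (SE 0.40, limma adjusted p = 0.816), and NFKBIZ, which differed by 1.05 (SE 0.27, limma adjusted p = 0.790). Neither passed the correction, although NFKB2 was lower and NFKBIZ higher in 2 of 2 knockdown libraries. NFKB1, RELA, TNFAIP2 and BIRC3 were likewise lower in both. The interval of the BIRC3 difference ran from -5.50 to 1.24. TNFAIP2 and ICAM1 were part of this fit, whose filter used all 6 libraries, although their mean in UM-UC-3 was under 1 FPKM.

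**Figure D2:**
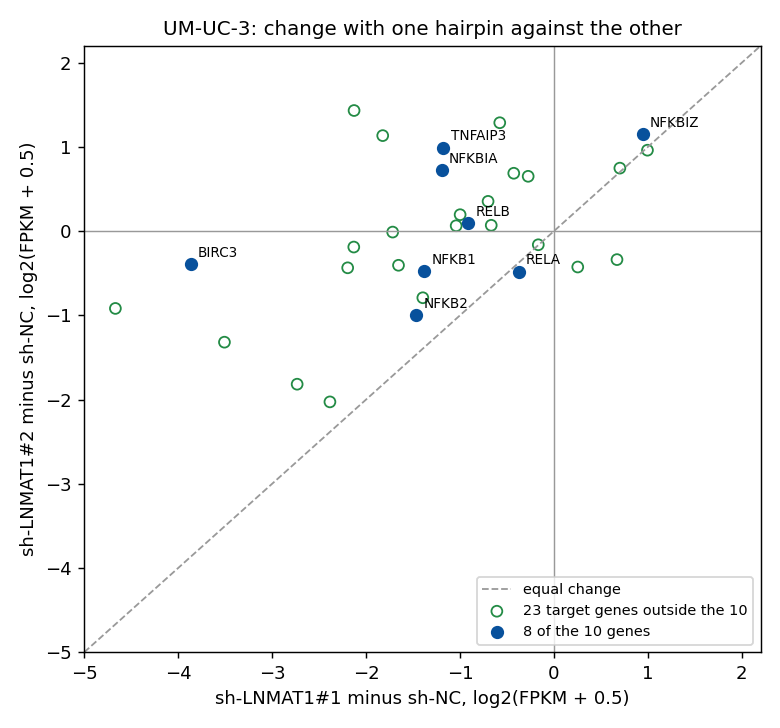
Change in UM-UC-3 with sh-LNMAT1#2 (vertical) against the change with sh-LNMAT1#1 (horizontal), as differences of log2(FPKM + 0.5) from sh-NC, for 8 of the 10 genes (filled) and 23 other known NF-kB target genes (open), with the dashed line marking equal change. BIRC3 lies at -3.87 with sh-LNMAT1#1 and -0.39 with sh-LNMAT1#2, and TNFAIP3 and NFKBIA lie left of 0 and above 0.

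A wider set of 71 pathway genes, in 4 lists, was read against the shares of all genes given above, which were 5.31% lower and 5.55% higher with sh-LNMAT1#1 and 1.41% lower and 2.1% higher with sh-LNMAT1#2. Among 14 receptor-proximal genes, 12 were expressed in UM-UC-3 and 0 passed the 2-fold limit with either hairpin. Among 13 genes of the kinases and the degradation machinery, 1 was lower with sh-LNMAT1#1 and 0 with sh-LNMAT1#2. Of 12 expressed genes among the further subunit, inhibitors and brakes, 5 were lower and 0 higher with sh-LNMAT1#1, 0 were lower and 1 higher with sh-LNMAT1#2, and 2 were 2-fold apart between the hairpins, against 8.79% of all genes. Of 23 expressed targets outside the 10 genes, 12 were lower and 0 higher with sh-LNMAT1#1, with a median log2 change of -1.04, while 3 were lower and 3 higher with sh-LNMAT1#2, with a median of -0.011. Of these 23, 14 were 2-fold apart between the hairpins.

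The targets that were 2-fold lower with both hairpins were 3 secreted products. MMP9, a gelatinase, stood at 12.9 FPKM in the control and at 2.08 and 2.80 with the hairpins. CCL2, a monocyte chemokine, stood at 25.2, 3.36 and 6.78. CSF2, which encodes GM-CSF, stood at 9.72, 0.399 and 3.60, and these 3 are descriptions of single libraries, since limma called no gene in this comparison.

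The second comparison set the lines side by side within the 4 sh-LNMAT1 libraries, so that neither control library entered. In 5637, TNFAIP2, ICAM1, TNFAIP3 and NFKBIZ were higher and NFKB2 and RELB were lower, while NFKB1, RELA, NFKBIA and BIRC3 did not pass the test. TNFAIP2 stood at 45.4 and 46.3 FPKM against 0.144 and 0.149, and ICAM1 at 29 and 21.1 against 0.0163 and 0.0714. Both NFKB2 and RELB belong to the non-canonical branch, while of the canonical subunits NFKB1 overlapped between the lines and RELA lay between 5.10 and 6.26 FPKM in all 4 libraries. The lines thus differed in opposite directions for different genes of the same pathway, and the median over the 10 was 0.048 on the log2 scale against -0.016 over all genes. These are RNA levels, and the activity of either branch was not measured.

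By limma over 12844 genes, 4 of the 10 genes were called higher in 5637, against 20.1% of all genes, and 2 lower, against 18.4%. Of these, TNFAIP2 and ICAM1 reached the mean of 1 FPKM asked for only through the 5637 libraries, where they are high. TNFAIP2 differed by 6.16 on the log2 scale (SE 0.19, adjusted p = 0.00015) and ICAM1 by 5.54 (SE 0.24, adjusted p = 0.00018). TNFAIP3 differed by 3.03 (SE 0.69, adjusted p = 0.0215), or 8.18-fold, and NFKBIZ by 0.73 (SE 0.22, adjusted p = 0.0473). RELB differed by -1.54 (SE 0.36, adjusted p = 0.0246), or 2.91-fold lower, and NFKB2 by -1.20 (SE 0.32, adjusted p = 0.0359). In each of these 6, both 5637 libraries lay on the same side of both UM-UC-3 libraries.

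The calls differed in how far they rested on a single library. TNFAIP2 and ICAM1 were called under every alternative run. RELB and TNFAIP3 were no longer called without 5637 sh-LNMAT1#1 or without 5637 sh-LNMAT1#2, where 2 of the 10 genes were called in place of 6. NFKB2 lost its call when any 1 of the 4 libraries was left out, and NFKBIZ lost it without UM-UC-3 sh-LNMAT1#1, without either 5637 library, with a minimum of 5 FPKM and with UM-UC-3 sh-NC added. With no filter on low genes, RELB, NFKB2, TNFAIP3 and NFKBIZ were not called.

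For the lowest genes the fragments give a second measure of the size, covering counting error only. With sh-LNMAT1#1, TNFAIP2 had 9122 fragments in 5637 against 31 in UM-UC-3, a depth-scaled ratio of 315 (exact binomial 95% interval 222 to 464). With sh-LNMAT1#2 it had 8662 and 33, a ratio of 311 (221 to 452). ICAM1 had 3316 against 2 fragments with sh-LNMAT1#1, a ratio of 1775 (491 to 14670), and 2245 against 9 with sh-LNMAT1#2, a ratio of 295 (155 to 647). The ICAM1 ratios are wide because the UM-UC-3 counts are near the floor of 3 fragments, and the log2 differences above are smaller because of the pseudocount.

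The 4 genes not called had intervals of very different width. RELA differed by 0.17 (95% interval -0.32 to 0.66) and NFKB1 by -0.15 (-1.002 to 0.70) on the log2 scale. NFKBIA differed by -0.08 with an interval from -1.62 to 1.47, and it was called in opposite directions when 1 library was left out, at -1.04 without UM-UC-3 sh-LNMAT1#1 and at 0.89 without UM-UC-3 sh-LNMAT1#2. BIRC3 differed by -3.19 (-5.94 to -0.44, limma adjusted p = 0.0700). BIRC3 was called once UM-UC-3 sh-NC was added (-3.90), and also without UM-UC-3 sh-LNMAT1#1 (-4.92) or without UM-UC-3 sh-LNMAT1#2 (-1.45). With the hairpin number as a replicate block it was called too, which made 7 of the 10.

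**Figure D3:**
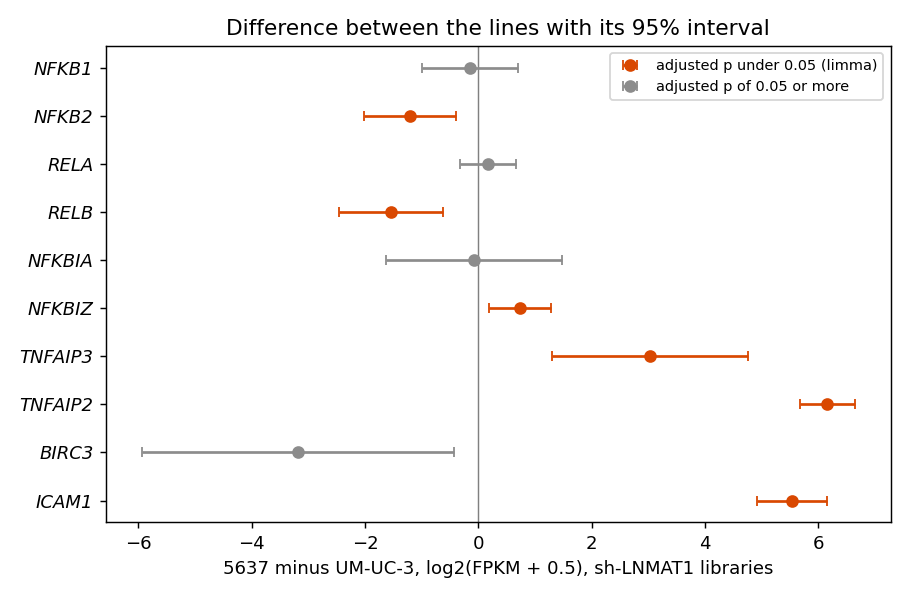
Difference between the lines among the 4 sh-LNMAT1 libraries (5637 minus UM-UC-3) in log2(FPKM + 0.5) for each gene, with 95% limma intervals; orange points have an adjusted p under 0.05. TNFAIP2 at 6.16 and ICAM1 at 5.54 lie farthest to the right, and the interval of BIRC3, from -5.94 to -0.44, is the widest.

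Of the 71 wider pathway genes, 66 could be tested between the lines, and 12 were higher and 14 lower in 5637, which is close to the shares of all genes (20.1% higher and 18.4% lower) and is no result about the pathway. Among 14 receptor-proximal genes 4 were higher and 3 lower. CD40, a receptor that feeds the non-canonical branch, was at 0 and 0.0121 FPKM in the 5637 knockdown libraries and at 8.99 and 8.73 in those of UM-UC-3 (log2 difference -4.21, SE 0.20, limma adjusted p = 0.00020). TLR4, the endotoxin receptor, was higher by 2.36 and IL1R1, the receptor of interleukin 1, by 1.63.

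Among the 13 kinases and parts of the degradation machinery, 0 were higher and 3 lower in 5637, namely RBCK1 (-1.21), a component of the linear ubiquitin ligase, MAP3K7 (-0.83), the kinase TAK1, and TAB2 (-0.76), its adaptor. Of the 13 tested inhibitors and brakes, 3 were higher and 2 lower. BCL3, a nuclear IkB protein that binds p50 and p52, was higher by 1.22, while COMMD1 was lower by 1.74 and NFKBIB, the inhibitor IkBb, by 1.12 on the log2 scale. Of 26 tested targets, 5 were higher and 6 lower, with a median of -0.072.

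The targets with the largest differences were inflammatory mediators. IL1A stood at 257 and 304 FPKM in the 5637 knockdown libraries and at 0.444 and 0 in those of UM-UC-3, IL1B at 94.8 and 118 against 0.405 and 0.0585, and PTGS2, the inducible cyclooxygenase, at 35.8 and 44.8 against 0.0452 and 0.00975. Their limma differences on the log2 scale were 8.67, 7.23 and 6.27, with SEs of 0.34, 0.30 and 0.22.

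The third comparison set the 5637 knockdown libraries against the library labelled 5637 sh-NC. TNFAIP2, ICAM1, TNFAIP3 and NFKBIZ were at least 2-fold higher with both hairpins and BIRC3 at least 2-fold lower. Of the 10 genes, 4 were higher, against 18.5% of 12791 genes, and 1 was lower, against 12.3%. TNFAIP3 was 23.4-fold and 24.0-fold higher in FPKM, and BIRC3 was 3.76-fold and 2.24-fold lower. The hairpins were 2-fold apart for 0 of the 10 genes, against 2.01% of all genes.

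By limma, 4 of the 10 were called in 5637, against 31% of all genes. TNFAIP2 differed by 6.15 (SE 0.24, adjusted p = 0.00051), ICAM1 by 5.63 (SE 0.30, adjusted p = 0.00052), TNFAIP3 by 4.17 (SE 0.84, adjusted p = 0.0190) and NFKBIZ by 1.46 (SE 0.27, adjusted p = 0.0151). NFKBIZ and TNFAIP3 were not called without 5637 sh-LNMAT1#1 or without 5637 sh-LNMAT1#2, which left 2 of 10 genes, and TNFAIP3 was not called with no filter on low genes, which left 3. NFKBIA and RELB were not called, at 0.94 (SE 0.75) and -0.92 (SE 0.45). Their hairpins in 5637 lay close together, at 0.88 and 0.9994 for NFKBIA and at -0.84 and -0.99 for RELB. The SE of this fit is shared by the lines, so it also holds the wider spread between the UM-UC-3 hairpins. TNFAIP2 and ICAM1 passed the filter only through the 5637 knockdown libraries, and ICAM1 rested on 1 fragment in the library labelled 5637 sh-NC. An effect of the hairpins and a difference between that 1 library and the other two cannot be told apart here. The same 4 genes were higher in the comparison of the lines, which uses the same 5637 knockdown libraries.

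The limma interaction of line and knockdown passed for 2 of the 10 genes, a share close to the 18.8% of all genes. Each line has 1 control library, so the p-values hold no spread between controls, and a different response of the lines cannot be told apart from the difference between the control libraries. The interaction was 6.73 on the log2 scale for TNFAIP2 (SE 0.35, adjusted p = 0.0028) and 5.68 for ICAM1 (SE 0.42, adjusted p = 0.0029). TNFAIP3 had an interaction of 4.26 with an adjusted p of 0.0629 by limma. Without UM-UC-3 sh-LNMAT1#2, 5 genes passed, with NFKB1, NFKBIA and TNFAIP3 added. All of these values use the library labelled 5637 sh-NC and are given as descriptions. As above, TNFAIP2 and ICAM1 entered this fit only through their levels in the 5637 knockdown libraries.

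With the lines pooled and the line as a covariate, limma called 0 of the 10 genes and 0% of all genes. Under an unadjusted 0.05 were 811 genes and 2 of the 10. This fit counts different changes of the lines as spread, and the SE of TNFAIP2 was 1.40, against 0.24 in the comparison within 5637. NFKBIZ differed by 1.25 on the log2 scale (SE 0.24, limma adjusted p = 0.569) and was higher in 4 of 4 knockdown libraries than in the library labelled sh-NC of its line. NFKB2 differed by -0.92 (SE 0.33, limma adjusted p = 0.569) and was lower in 4 of 4. BIRC3 was also lower in 4 of 4, with a difference of -1.765 (SE 0.93, limma adjusted p = 0.569). The share of all genes with such agreement was not counted. Without UM-UC-3 sh-NC, 4 genes were called (NFKBIZ, TNFAIP3, TNFAIP2 and ICAM1), and that fit compares the knockdown with the library labelled 5637 sh-NC alone.

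**Figure D4:**
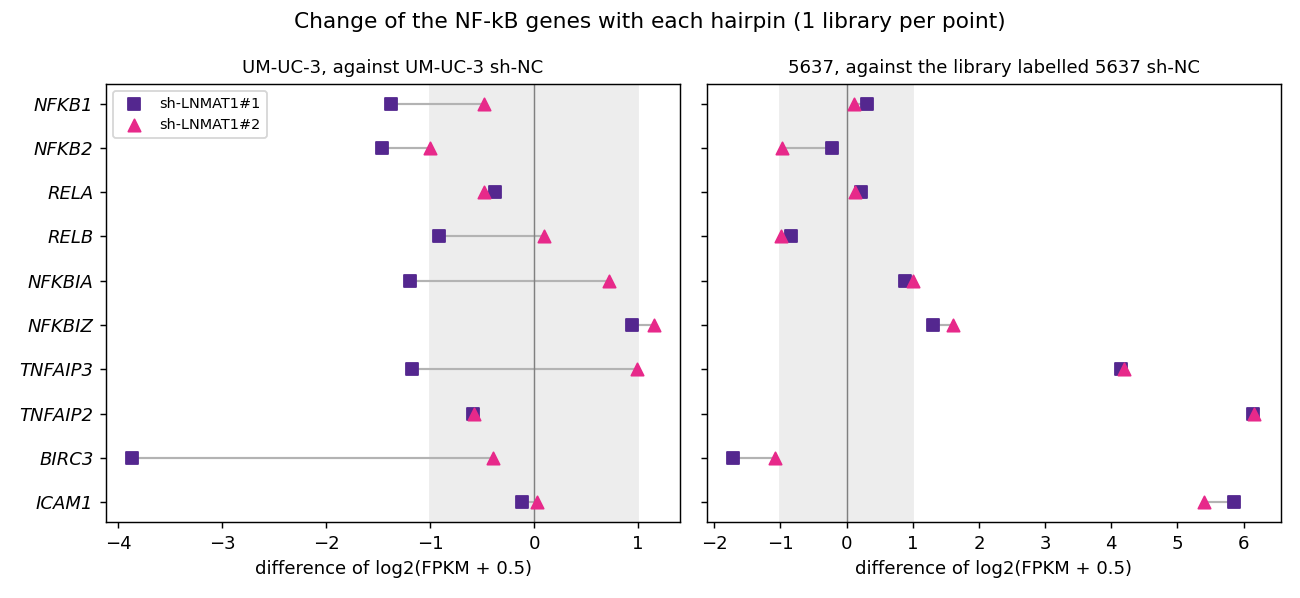
Change of each gene with sh-LNMAT1#1 (squares) and sh-LNMAT1#2 (triangles) against UM-UC-3 sh-NC (left) or the library labelled 5637 sh-NC (right), as differences of log2(FPKM + 0.5), with 1 library per point, the 2-fold range shaded and a different horizontal scale in each panel. In UM-UC-3 the hairpins lie far apart for BIRC3, TNFAIP3 and NFKBIA, and in 5637 they lie less than 2-fold apart for all 10 genes, with NFKB2 farthest apart at 0.75.

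In these genes UM-UC-3 sh-LNMAT1#1 was the library most like the one labelled 5637 sh-NC. Their median absolute log2 difference was 0.058, the largest was 0.63 (NFKBIZ), and 0 of the 10 were 2-fold apart, against 0.999% of all genes. BIRC3 stood at 9.35 and 9.72 FPKM, NFKBIA at 11.5 and 11.9, and TNFAIP2 at 0.152 and 0.144 in those libraries. From UM-UC-3 sh-NC the library differed by a median of 1.13 with 6 genes 2-fold apart, and from the 5637 knockdown libraries by 1.10 and 1.04 with 5 genes each. Gene by gene, UM-UC-3 sh-LNMAT1#1 was the nearest library for 6 of the 10 genes, against 52.6% of 12717 genes.

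**Figure D5:**
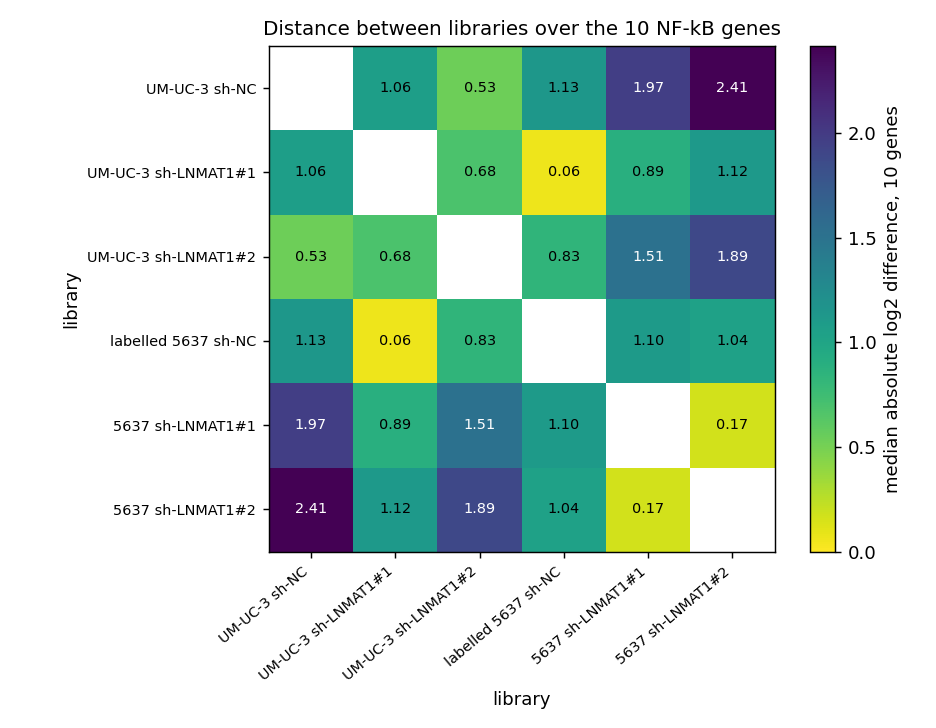
Median absolute log2 difference over the 10 genes between each pair of libraries, with darker colours for larger differences. The smallest value off the diagonal, 0.06, joins UM-UC-3 sh-LNMAT1#1 and the library labelled 5637 sh-NC. The 5637 knockdown libraries differ from each other by 0.17.

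A mean of at least 5 FPKM was reached by 6250 genes. Among those of them with a symbol, the most like NFKBIA in pattern over the 6 libraries were CLN6 (Pearson r = 0.993), UHRF2 (0.990) and IPO13 (0.981). CLN6 ran from 4.13 FPKM in UM-UC-3 sh-LNMAT1#1 to 14.9 in UM-UC-3 sh-LNMAT1#2, which are also the hairpins between which NFKBIA differed by -1.92. For RELB they were WWC2 (0.996), SREBF2 (0.996) and TOX4 (0.995). These are descriptions over 6 points that share lines and libraries, and they were the highest of many values.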

How the data were processed

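The authors deposited 1 table of FPKM per gene for the 6 libraries, with 50869 rows, of which 1 had no values and was left out. Per the labels and the study's methods, RNA was extracted with TRIzol and sequenced from stranded mRNA libraries. The submitters' processing notes name HISAT2 and hg38. The counting program and the annotation are not given in the sources used here. Of the identifiers, 50110 were found in GENCODE 29 and 47522 had the same position there, all 10 genes described among them.

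Depth was the smallest number of fragments that made FPKM times exon length whole (within 0.02 fragments) for single-exon genes. At least 99.96% of these values came out whole. These intervals and floors reflect only counting error.

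Python 3.11.15 (numpy 2.4.6, pandas 2.3.3, matplotlib 3.10.9) and R 4.3.3 with limma 3.58.1 (lmFit, eBayes with a trend) were used on log2(FPKM + 0.5). The original fits took genes whose mean over all 6 libraries reached 1 FPKM. In the comparison of the lines the mean was over the 4 sh-LNMAT1 libraries, and for the 2-fold rule over the 3 libraries of a line. A gene was called when its p, adjusted by Benjamini-Hochberg over all genes tested, was under 0.05, and limma was tested on simulated data. No count model was used on the FPKM values.

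The 10 genes, the pathway and marker lists and the comparisons were chosen with earlier results of these data known. Named beside the 10 were, per pathway list, the up to 3 called genes with the largest difference between the lines and the up to 3 that changed 2-fold with both hairpins in UM-UC-3, the 3 genes most like NFKBIA and RELB, and LINC01296. Alternatives were pseudocounts of 0.1 and 1, no filter and 5 FPKM, 75th-percentile scaling, a 1.5-fold limit, single hairpins, limma with no trend, no line covariate, UM-UC-3 sh-NC added, the hairpin number as a replicate block, and leaving out each library. Leaving the library labelled 5637 sh-NC out of the UM-UC-3 fit was added after seeing the data. Promoter sequences and their starts came from RefSeq (GRCh38.p14). Those longer than 30 bases are printed only where no GENCODE exon overlaps.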

Additional observations from a re-analysis of the deposited data

Results flagged for a closer look

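TNFAIP2 and ICAM1 were flagged because the limma interaction of line and knockdown passed for them, at 6.73 (adjusted p = 0.0028) and 5.68 (adjusted p = 0.0029) on the log2 scale. NFKB1 was flagged because both hairpins gave a lower level in UM-UC-3 and a higher one in 5637, an interaction of 1.14 that did not pass limma's test (adjusted p = 0.220). RELA was flagged for the same pattern, with an interaction of 0.60 that did not pass either (adjusted p = 0.256). All 4 values use the library labelled 5637 sh-NC, each line has 1 control library, and no spread between controls enters the p-values. A different response of the lines and a difference between the control libraries cannot be told apart.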

How the results depend on the processing

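Of the counts of genes called or passing the 2-fold rule, 73 values under alternatives stayed within 1.5 times the original and 15 did not. Among the 73 are counts of 0 that stayed at 0, as in every UM-UC-3 limma run and most pooled runs. The original runs of these called 0% of all genes, so such counts had little room to move. Between the lines, 6 genes were called, 2 with no filter and 2 to 7 when 1 library was left out. Against the library labelled 5637 sh-NC 4 genes were called, 3 with no filter (TNFAIP3 lost) and 2 to 6 with 1 library left out. Leaving out 1 library gave 2 to 5 for the interaction in place of 2, and 0 to 4 for the pooled comparison in place of 0. In these fits an arm left with 1 library is assumed to vary like the others. In UM-UC-3 the count of genes 2-fold lower with both hairpins was 0, and it was 1 with a pseudocount of 0.1, with 75th-percentile scaling or at 1.5-fold, and 5 for sh-LNMAT1#1 alone. The count higher with both was 0, and 1 with a pseudocount of 0.1, at 1.5-fold or for sh-LNMAT1#2 alone. Against the library labelled 5637 sh-NC the count lower with both was 1, and 2 at 1.5-fold. NFKBIA between the lines, at -0.08, ran from -1.04 to 0.89 with 1 library left out and changed sign, as a call, without UM-UC-3 sh-LNMAT1#2. With the hairpin number as a replicate block, 7 genes were called between the lines in place of 6, and the numbers only name the hairpins. Apart from the fits with fewer libraries, the cause was not tested. With 1 library per construct, changes of single hairpins have no error, and ICAM1 outside the 5637 knockdown libraries is at or near the floor of 3 fragments.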
